A study of Saccharomyces cerevisiae with 22 samples.

Results

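The Ras and protein kinase A pathway was followed in budding yeast, Saccharomyces cerevisiae, through 9 of its genes: RAS1, RAS2, IRA2, CYR1, PDE1, PDE2, BCY1, TPK2 and TPK3. They are the rows of the deposited count table that carry these names, and all 9 were found among the table's 5381 genes. The measurements were 22 samples of RNA or of ribosome-protected fragments (footprints) from cells growing in glucose and from cells moved for 15 min to medium without it. Each strain, BY4741 (derived from S288C, the source of the reference genome) and EY0690 (called w303 in the labels), was cultured in synthetic complete medium at 30 °C until the OD600 reached 0.3 to 0.4. Glucose controls and starved cells alike received 1 min of cycloheximide at 100 ug/ml, which blocks translation elongation.

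For each strain and condition there were 2 libraries of polyA-selected RNA and 2 of footprints, which makes 8 libraries of each kind. RNA without polyA selection was held as 1 total RNA library per condition in BY4741 and, in EY0690, as 1 column per condition in which the authors pooled total and RiboZero-treated RNA. Nothing in the labels says that replicates came from separate cultures, so the p-values measure the spread between these libraries, which may be technical. The table gives each gene a count in an initiation region and a count in the region downstream of it. The downstream counts were used unless the initiation region is named, and they summed to between 698310 and 8110916 per library or pooled column. The BY4741 footprint libraries numbered 2 stood apart: their log2 levels correlated with those of the matching polyA RNA across 5018 genes at 0.946 and 0.942, against 0.822 to 0.875 in the other 6 pairs. The EY0690 libraries of polyA RNA held 1146371 to 1974938 downstream counts and those of BY4741 held 5252923 to 7003745, and those of footprints 698310 to 1660505 against 1999970 to 8110916, so that strain and depth cannot be told apart. BY4741 is a haploid of mating type a, and STE2, the pheromone receptor gene of a cells, had 320 to 7673 polyA counts per library in both strains, while STE3, that of alpha cells, had 0 to 84.

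In yeast, the small GTPases Ras1 and Ras2 bind GTP and activate adenylate cyclase, which makes cyclic AMP. Cyclic AMP binds the regulatory subunit of protein kinase A and frees the catalytic subunits, which favour growth on glucose and hold back the stress response. GTPase-activating proteins return Ras to its GDP form, and phosphodiesterases break cyclic AMP down.

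The table's initiation region, whose bounds no source used here gives, held a different share of the footprints of RAS2 and TPK2 in the conditions, and the test was not passed in their close relatives RAS1 and TPK3. To show how far the paralogs resemble each other at the annotated start, without placing the region in these bases, the first 60 coding bases of these 4 genes, from the RefSeq R64 sequence and each on its coding strand, are shown with the annotated start codon in capitals.
TPK2 (chrXVI:166256-166315, plus strand): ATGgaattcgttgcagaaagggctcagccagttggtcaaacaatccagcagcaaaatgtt
TPK3 (chrXI:135646-135705, minus strand): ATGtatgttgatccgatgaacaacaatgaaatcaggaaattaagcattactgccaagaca
RAS2 (chrXIV:440511-440570, minus strand): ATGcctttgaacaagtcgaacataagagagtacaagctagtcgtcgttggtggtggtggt
RAS1 (chrXV:515244-515303, plus strand): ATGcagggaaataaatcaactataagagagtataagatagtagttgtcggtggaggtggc
Over their aligned coding bases RAS1 and RAS2 were 67.4% identical and TPK2 and TPK3 were 67.4% identical. The longest run of bases that a pair shared was 17 in RAS1 and RAS2 and 14 in TPK2 and TPK3. No member shared a word of 28 bases, the length of the sequenced fragments in the labels' protocol, with any other coding sequence of the annotation, so that no fragment of that length matches a member and its paralog exactly. Each of the 9 genes has 1 coding exon.

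Removal of glucose moved the RNA of nearly every member, and not in the same direction. The polyA RNA of TPK2, a catalytic subunit of protein kinase A, of BCY1, its regulatory subunit, of IRA2, a Ras GTPase-activating protein, of RAS2, of CYR1, the adenylate cyclase, and of PDE1, the low-affinity cyclic AMP phosphodiesterase, was higher in starved cells. The polyA RNA of RAS1 and of TPK3, another catalytic subunit, was lower. Thus 6 members rose, 2 fell and PDE2, the high-affinity phosphodiesterase, did not pass, at an adjusted p under 0.05 in edgeR's quasi-likelihood test with Benjamini-Hochberg adjustment over all genes tested. Among the 5304 genes tested 39.6% passed, 20.4% higher and 19.2% lower. The median log2 change was 0.75 over the 9 members and -0.03 over all genes. In BY4741 alone 2 members passed, TPK2 and BCY1, beside 418 of all genes. In EY0690 alone 6 members passed, beside 1640 of all genes. RAS1 and PDE1 passed in neither strain alone.

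Levels are given as CPM (reads per 1000000 counted) scaled by the trimmed mean of M values (TMM) within each kind of library, and for each strain the 2 replicates follow each other in order of their number. CPM are relative to each library, so that a change in all mRNA of a cell cannot be seen in them. RAS1 polyA RNA was 159.9 and 136 CPM in glucose and 89.3 and 115 CPM without it in BY4741, and 81.0 and 89.7 CPM against 56.0 and 57.2 CPM in EY0690. Every starved library was below the glucose libraries of its own strain, although the ranges overlapped over both strains. RAS1 (YOR101W, chromosome XV, 515244 to 516173, plus strand) fell by 0.56 ± 0.14 (SE) on the log2 scale over 8 libraries (adjusted p = 0.0094, edgeR). RAS2 polyA RNA was 262 and 253 CPM in glucose and 565 and 370 CPM in starved BY4741, and 412 and 421 CPM against 803 and 796 CPM in EY0690. All starved libraries again lay on one side of the glucose libraries of their strain, here the higher. RAS2 (YNL098C, chromosome XIV, 439602 to 440570, minus strand) rose by 0.90 ± 0.16 (adjusted p = 0.0012).

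IRA2, like its relative IRA1, stimulates GTP hydrolysis by Ras and so turns Ras off. IRA2 polyA RNA was 93.1 and 182 CPM in glucose and 212 and 250.2 CPM in starved BY4741, and 160.1 and 130.3 CPM against 441 and 363 CPM in EY0690. The 4 starved libraries did not overlap the 4 glucose libraries. IRA2 (YOL081W, chromosome XV, 171070 to 180309, plus strand) rose by 1.10 ± 0.23 on the log2 scale (adjusted p = 0.0027, edgeR).

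CYR1, the adenylate cyclase (YJL005W, chromosome X, 425157 to 431237, plus strand), had 60.3 and 94.7 CPM of polyA RNA in glucose and 139 and 129.7 CPM in starved BY4741, and 111 and 101 CPM against 161 and 184 CPM in EY0690. Its starved libraries were all above its glucose libraries, and it rose by 0.75 ± 0.16 on the log2 scale (adjusted p = 0.0035, edgeR).

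The phosphodiesterases, which degrade cyclic AMP, were closest to the threshold. PDE1 (YGL248W, chromosome VII, 35653 to 36762, plus strand) had 62.3 and 57.7 CPM in glucose and 90.5 and 72.9 CPM in starved BY4741, and 88.8 and 60.1 CPM against 139 and 93.4 CPM in EY0690. It rose by 0.53 ± 0.18 on the log2 scale (adjusted p = 0.0293, edgeR), and the call was lost when libraries were scaled by their size alone (adjusted p = 0.0612) and without BY4741 glucose replicate 2 (0.0693), EY0690 starved replicate 1 (0.106) or EY0690 glucose replicate 2 (0.0772). PDE2 (YOR360C, chromosome XV, 1013241 to 1014821, minus strand) had 240.3 and 272 CPM in glucose and 122 and 218 CPM in starved BY4741. In EY0690 PDE2 had 106 and 155 CPM in glucose and 108 and 87.8 CPM in starved cells, so that there the conditions overlapped. Its log2 difference was -0.50 ± 0.20 (adjusted p = 0.0615, edgeR). With the replicate number as a block the value was -0.52 (adjusted p = 0.0409), with DESeq2 -0.51 (adjusted p = 0.0468), and without BY4741 starved replicate 2 -0.68 (adjusted p = 0.0172).

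The regulatory and catalytic subunits of the kinase gave the widest spread. BCY1 polyA RNA (YIL033C, chromosome IX, 290419 to 291669, minus strand) was 73.8 and 64.4 CPM in glucose and 219.8 and 130.5 CPM in starved BY4741, and 117 and 129 CPM against 301 and 339.9 CPM in EY0690. It rose by 1.36 ± 0.17 on the log2 scale (adjusted p = 7.52e-05, edgeR), with no overlap between conditions. TPK2 polyA RNA (YPL203W, chromosome XVI, 166256 to 167398, plus strand) was 31.0 and 37.6 CPM in glucose and 174 and 107 CPM in starved BY4741, and 61.1 and 70.2 CPM against 225 and 238 CPM in EY0690. It rose by 1.93 ± 0.18 (adjusted p = 3.61e-06), a 3.81-fold increase and the largest among the members in this comparison. TPK3 polyA RNA (YKL166C, chromosome XI, 134509 to 135705, minus strand) went the other way, from 117 and 121 CPM to 37.8 and 78.8 CPM in BY4741 and from 145 and 119 CPM to 83.2 and 88.6 CPM in EY0690. TPK3 fell by 0.84 ± 0.21 (adjusted p = 0.0077), again with no overlap.

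**Figure D1:**
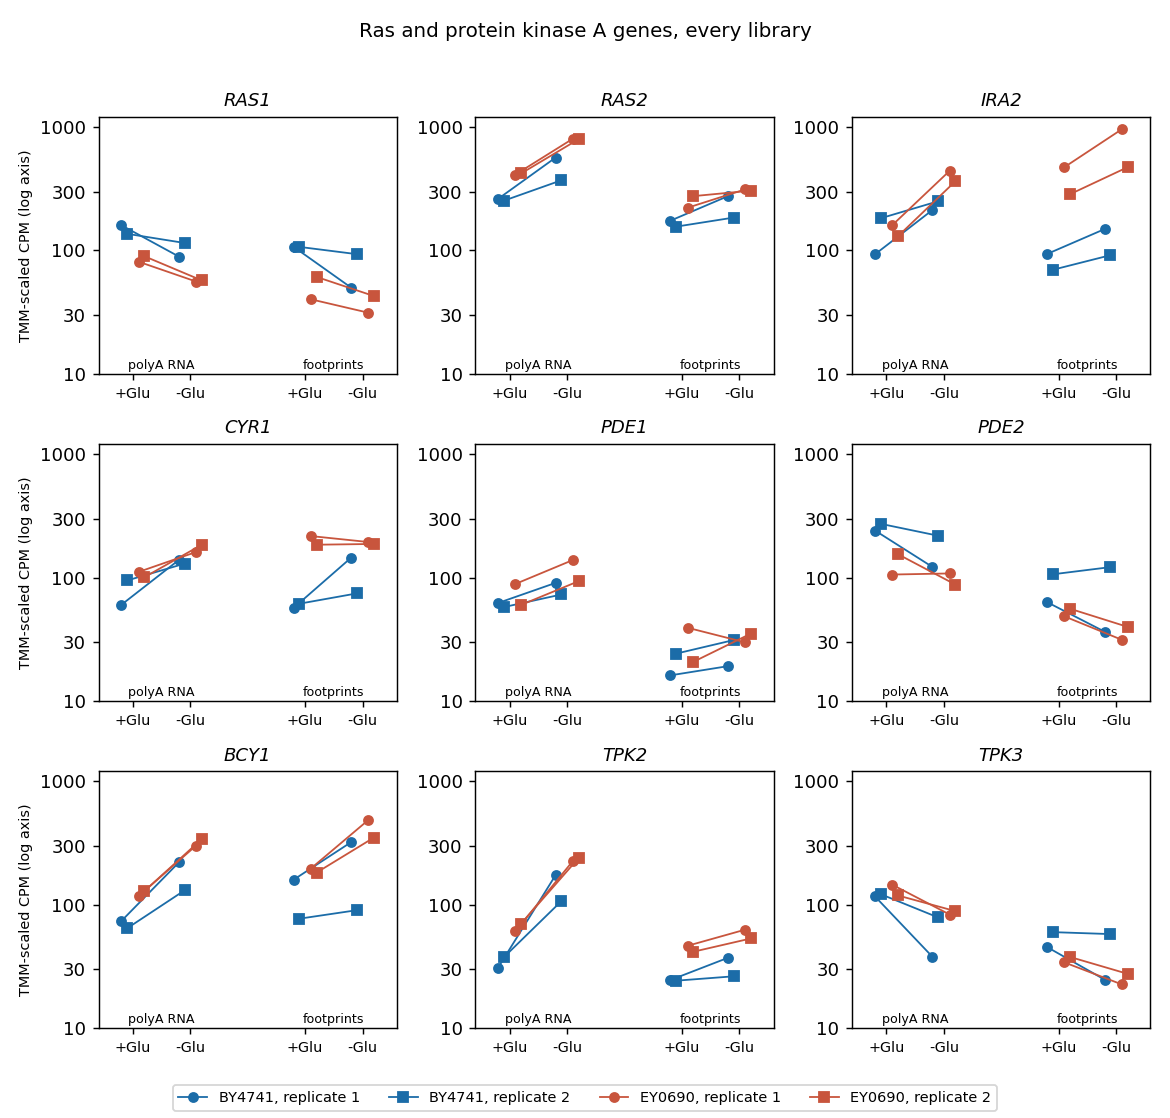
TMM-scaled CPM (log axis) of each of the 9 genes in every polyA RNA and footprint library, in glucose (+Glu) and after 15 min without it (-Glu), with lines joining libraries of a strain and number. The TPK2 panel shows polyA RNA of 31.0 to 70.2 CPM in glucose and 107 to 238 CPM in starved cells, beside footprints of 24.2 to 46.4 and 26.3 to 62.7 CPM.

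In RNA that had not been polyA selected, every member differed between conditions in the direction of its polyA value. The share of all genes that did so was not computed, so nothing particular to the members can be read from it. In the BY4741 total RNA libraries, 1 per condition and so without a test, TPK2 was 35.1 CPM in glucose and 139 CPM in starved cells, BCY1 138 and 204 CPM, RAS2 138 and 293 CPM, and TPK3 52.4 and 33.5 CPM. In the authors' pooled EY0690 columns TPK2 was 60.3 and 169 CPM, BCY1 130.01 and 246 CPM, RAS2 233 and 333 CPM, and TPK3 65.7 and 35.6 CPM.

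Genes around the members gave a mixed picture in polyA RNA. Of 17 listed upstream regulators and processing enzymes of the pathway 16 were tested, of which 6 rose, 1 fell and 9 did not pass, with a median log2 change of 0.36. TFS1 rose by 2.50 ± 0.24. GPA2, the G protein alpha subunit of the glucose receptor, rose by 1.54 ± 0.23. STE14, which methylates the processed end of Ras, fell by 0.74 ± 0.21. Of 20 listed substrates and targets of the kinase 19 were tested, of which 8 rose, 1 fell and 10 did not pass, with a median of 0.30. Over all 5304 genes tested 20.4% rose and 19.2% fell, with a median of -0.03. The largest values were those of ADR1, an activator of genes for growth on non-fermentable carbon, at 3.07 ± 0.23, of the kinase YAK1 at 1.67 ± 0.16, of the stress transcription factor MSN4 at 1.45 ± 0.19 and of the neutral trehalase NTH1 at 1.20 ± 0.19.

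Downstream of the initiation region, the footprints of no member passed the test between conditions. The count was 0 of 9 against 3.19% of the 5018 genes tested, of which 2.93% were higher and 0.259% lower. At an unadjusted p under 0.05 there were 2 of 9 members, BCY1 and IRA2, against 15.2% of all genes tested. DESeq2 called 0 members, while it called 299 genes in place of 160. The median log2 difference was 0.38 over the members and -0.03 over all genes. It was 0.48 over the 37 genes with a listed length of at least 6000 bases, to which IRA2 and CYR1 belong. Over 1798 genes under 1000 bases it was -0.15, and the part of length in the members' values was not tested.

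BCY1 had 159 and 76.9 CPM of footprints in glucose and 320.2 and 90.1 CPM in starved BY4741, and 196 and 182 CPM against 484 and 349 CPM in EY0690. The starved library was the higher of each of the 4 same-numbered pairs, with BY4741 replicate 2, a library that stood apart, the least different. The log2 difference was 0.96 ± 0.38 (adjusted p = 0.235, edgeR). With the replicate number as a block it was 0.87 (adjusted p = 0.0239), which passed; with the block 429 genes passed in place of 160. Without starved BY4741 replicate 2 it was 1.27 (adjusted p = 0.0079), without both BY4741 libraries numbered 2 it was 1.10 (adjusted p = 0.0062), and in EY0690 alone 1.14 (adjusted p = 0.0044).

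IRA2 footprints were 93.7 and 69.8 CPM in glucose and 149 and 91.5 CPM in starved BY4741, and 473 and 286 CPM against 958 and 472 CPM in EY0690, a log2 difference of 0.73 ± 0.31 (adjusted p = 0.283, edgeR). RAS2 footprints were 174 and 156 CPM in glucose and 275 and 185 CPM in starved BY4741, and 222 and 275 CPM against 312 and 305 CPM in EY0690, with a difference of 0.39 ± 0.23 (adjusted p = 0.478). Both genes were higher in the starved library of all 4 pairs. RAS1 footprints were 107.0 and 106.9 CPM in glucose and 50.1 and 93.3 CPM in starved BY4741, and 40.2 and 61.0 CPM against 31.3 and 42.7 CPM in EY0690, with a difference of -0.51 ± 0.25 (adjusted p = 0.376). RAS1 and TPK3 were lower in the starved library of all 4 pairs, and the ranges of the conditions overlapped for every member. The shares of all genes with pairs of 1 direction or with such overlap were not computed.

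CYR1 footprints were between 56.8 and 217 CPM in glucose and between 74.4 and 194 CPM in starved cells, with a log2 difference of 0.40 ± 0.28. The values for the other 3 members were -0.41 ± 0.28 for TPK3, 0.23 ± 0.30 for PDE1 and -0.29 ± 0.34 for PDE2. None of these 4 passed in edgeR.

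TPK2 showed the widest gap between RNA and footprints. Its downstream footprints were 24.5 and 24.2 CPM in glucose and 37.1 and 26.3 CPM in starved BY4741, and 46.4 and 41.6 CPM against 62.7 and 53.2 CPM in EY0690. That is a log2 difference of 0.38 ± 0.22 (adjusted p = 0.480, edgeR), beside an RNA change of 1.93. The change in footprints relative to polyA RNA, called occupancy here and tested as an interaction in a single model of all 16 libraries, fell by 1.49 ± 0.27 (adjusted p = 0.0133), a 2.82-fold decrease. TPK2 was the only member to pass, 1 of 9 against 1.34% of 5018 genes (0.279% higher and 1.06% lower). With DESeq2 1 of 9 passed as well, where 200 genes passed in place of 67. The footprints per polyA RNA of TPK2 stood between the 42.0 and 63.5 percentiles of all genes in the glucose libraries and between the 1.83 and 14.2 percentiles in the starved ones.

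The TPK2 value depended on which footprints were counted. With the initiation region added to the downstream region, its occupancy difference was -0.78 (adjusted p = 0.314) and its footprints rose by 1.10 on the log2 scale (adjusted p = 0.0217, edgeR). In BY4741 alone the occupancy difference was -1.75 (adjusted p = 0.997) and in EY0690 alone -1.32 (adjusted p = 0.0418).

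The occupancy differences of the other 8 members ran from -0.44 ± 0.26 for RAS2 to 0.49 ± 0.36 for TPK3, and none passed. RAS1 was at 0.10 ± 0.28, BCY1 at -0.33 ± 0.45 and IRA2 at -0.30 ± 0.41. The median was -0.28 over the members and 0.05 over all genes. The occupancy test shares the polyA and footprint libraries of the comparisons above. With the replicate block 246 genes passed in place of 67, and the member called was again TPK2 alone.

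**Figure D2:**
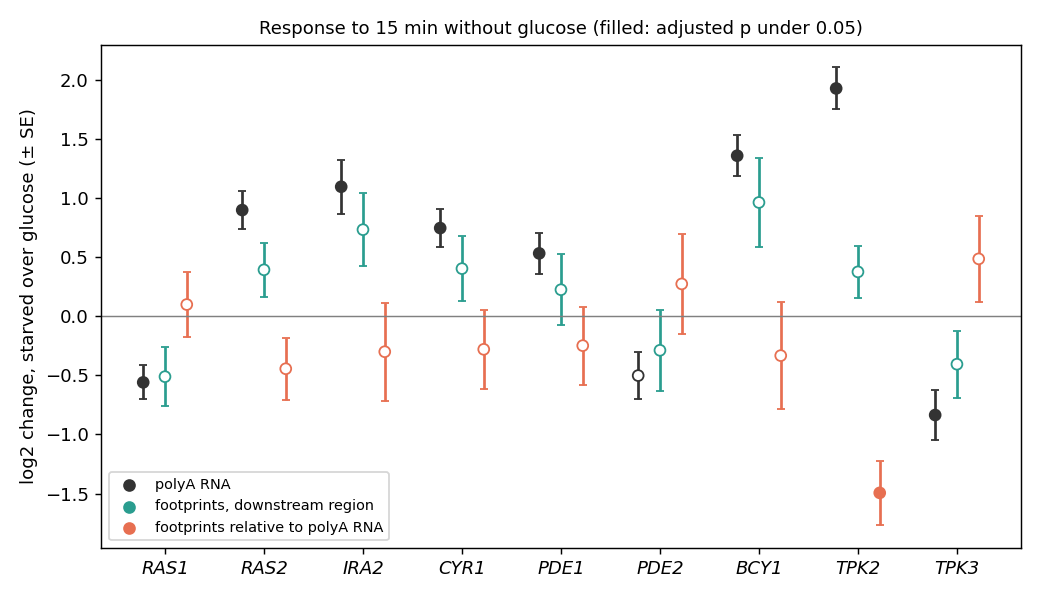
Log2 change, starved over glucose, with its SE, of polyA RNA, of downstream footprints and of footprints relative to polyA RNA for the 9 genes. Filled points passed at an adjusted p under 0.05 (edgeR): 8 in polyA RNA, 0 in footprints and TPK2, at -1.49, in the relative measure.

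Among the 19 targets ADR1 fell by 1.71 ± 0.35 and YAK1 by 1.40 ± 0.29 in occupancy. In footprints 0 of the 15 upstream regulators passed, or 2, GPA2 and TFS1, with the replicate block, and 1 of the 19 targets did, ADR1, which rose by 1.30 ± 0.25 (adjusted p = 0.0129). Over all 5018 genes tested 1.34% passed in occupancy and 3.19% in footprints, where 429 genes passed with the replicate block.

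Footprints of TPK2 and RAS2 lay more often in the initiation region after glucose was removed. This comparison was added after the data were seen. It tests initiation against downstream footprint counts between conditions, relative to other genes, in the 4227 genes with at least 40 initiation counts in all footprint libraries together. TPK2 and RAS2 passed, 2 of 9 members, against 3.71% of the genes tested (2.44% higher and 1.28% lower), and with IRA2 3 of 9 members had an unadjusted p under 0.05, against 17.2% of all genes tested. The median log2 difference was 0.86 over the members and 0.07 over all genes.

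Of the TPK2 footprints in both regions, the initiation region held 26.1% and 9.89% in glucose and 56.5% and 37.0% in starved BY4741, and 4.26% and 21.95% against 57.4% and 45.1% in EY0690. The counts behind these shares were 30 of 115 and 26 of 263, then 78 of 138 and 101 of 273 in BY4741, and 2 of 47 and 9 of 41, then 116 of 202 and 46 of 102 in EY0690. Every starved library was above every glucose library, with means of 49.0% ± 9.78 (SD, n = 4) and 15.5% ± 10.2. The log2 change relative to other genes was 2.15 ± 0.50 (adjusted p = 0.0159, edgeR).

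RAS2 had 14.8% and 9.81% in glucose and 36.5% and 26.3% in starved BY4741, and 3.15% and 6.61% against 39.3% and 32.8% in EY0690. The conditions did not overlap, with means of 33.7% ± 5.62 (SD, n = 4) in starved cells and 8.596% ± 4.96 in glucose. The log2 change was 2.18 ± 0.45 (adjusted p = 0.0074, edgeR). In the median gene the share was 4.93% to 12.6% in the glucose libraries and 6.76% to 12.2% in the starved ones. That median was taken in each library over genes above a minimum count in both regions together. Neither gene passed in a single strain, where the values were 2.05 and 2.21 for TPK2 and 1.63 and 2.77 for RAS2 in BY4741 and EY0690. Without EY0690 glucose replicate 1 the adjusted p was 0.0847 for TPK2 and 0.0540 for RAS2, and without BY4741 glucose replicate 2 it was 0.0634 for TPK2.

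In polyA RNA the initiation share of the same genes was lower in both conditions. For TPK2 the initiation region held 2.93% ± 0.92 (SD, n = 4) of polyA counts in glucose and 2.996% ± 1.60 in starved cells, and for RAS2 3.33% ± 1.03 and 3.37% ± 0.55. The paralogs RAS1 and TPK3 had footprint shares of 6.38% ± 5.04 and 5.41% ± 1.56 in glucose and 6.66% ± 3.58 and 11.7% ± 6.69 in starved cells, and log2 differences of -0.09 ± 0.63 and 0.75 ± 0.62. Whether TPK2 and RAS2 differed from their paralogs was not tested. BCY1 had 10.7% ± 4.72 and 21.3% ± 3.68 (log2 difference 0.86 ± 0.44, adjusted p = 0.319), and IRA2 had 2.40% ± 2.27 and 7.84% ± 5.32 (1.45 ± 0.56, adjusted p = 0.175).

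Among the upstream regulators GPA2, at 2.42 ± 0.52, and TFS1, at 2.07 ± 0.59, also rose in initiation share on the log2 scale (adjusted p = 0.0115 and 0.0482, edgeR). Of 15 targets tested MSN4 rose by 2.96 ± 0.80 and CDC19, the pyruvate kinase, fell by 2.09 ± 0.46. Over all 4227 genes tested 2.44% rose and 1.28% fell in initiation share.

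**Figure D3:**
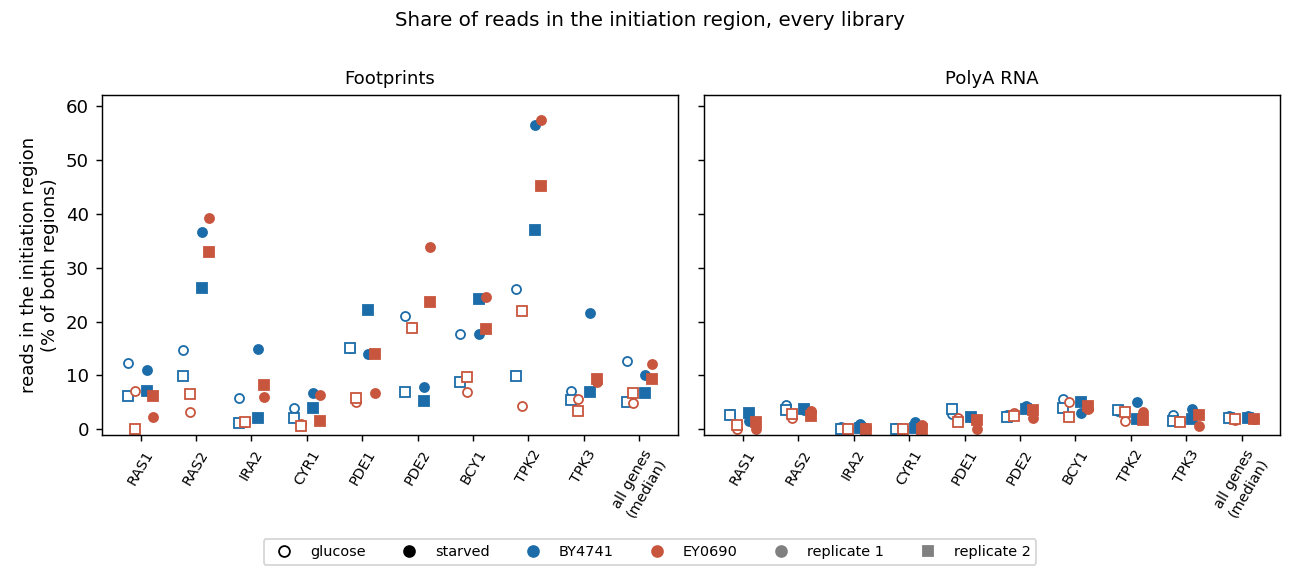
Percentage of a gene's counts in the initiation region out of both regions, in every footprint library (left) and polyA RNA library (right), for the 9 genes. The last column, labelled all genes, is the median over genes above a minimum count in both regions together in that library. Starved TPK2 and RAS2 footprint libraries sit at 37.0% to 57.4% and 26.3% to 39.3%, above their glucose libraries at 4.26% to 26.1% and 3.15% to 14.8%.

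The strains differed in the levels of several members. In polyA RNA, with condition in the model, RAS2, BCY1 and TPK2 were higher in EY0690 and RAS1 and PDE2 were lower, 5 of 9 members, against 37.2% of 5304 genes (20.2% higher and 17% lower in EY0690). The log2 differences were 0.73 ± 0.16 for RAS2, 0.85 ± 0.17 for BCY1, 0.82 ± 0.17 for TPK2, -0.82 ± 0.15 for RAS1 and -0.89 ± 0.20 for PDE2, with adjusted p between 0.0010 and 0.0041 in edgeR. CYR1 at 0.41 ± 0.16 (adjusted p = 0.0646), PDE1 at 0.42 ± 0.18 (0.0765), IRA2 at 0.45 ± 0.23 (0.139) and TPK3 at 0.34 ± 0.21 (0.209) did not pass. Without BY4741 glucose replicate 2 CYR1 was at 0.54 (adjusted p = 0.0323) and IRA2 at 0.74 (0.0087), and without EY0690 glucose replicate 2 PDE1 was at 0.51 (0.0456).

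In footprints IRA2, CYR1 and TPK2 were higher in EY0690 and RAS1 was lower, 4 of 9 against 21.9% of 5018 genes (11.2% higher and 10.7% lower). IRA2 was the furthest apart, with 285.7 to 958 CPM in the 4 EY0690 libraries and 69.8 to 149 CPM in the 4 BY4741 libraries and so no overlap. Its log2 difference was 2.40 ± 0.32 (adjusted p = 8.9e-04, edgeR), a 5.27-fold difference, beside 0.45 in polyA RNA. CYR1 footprints were 184 to 217 CPM in EY0690 and 56.8 to 145 CPM in BY4741, a difference of 1.29 ± 0.28 (adjusted p = 0.0084). TPK2 differed by 0.87 ± 0.22 (adjusted p = 0.0168), a call lost when libraries were scaled by their size alone (0.77, adjusted p = 0.131), a scaling under which BCY1 passed instead (0.89, adjusted p = 0.0380). RAS1 differed by -1.03 ± 0.25 (adjusted p = 0.0149). The calls of RAS1 and TPK2 were both lost without EY0690 glucose replicate 1 (adjusted p = 0.0631 and 0.0575), without EY0690 starved replicate 1 (0.0582 and 0.0700) and without both BY4741 libraries numbered 2 (0.0549 for each), and that of TPK2 without BY4741 glucose replicate 2 (0.0524). Without BY4741 starved replicate 1, 8 of 9 members passed, with RAS2 (0.67), BCY1 (1.28), TPK3 (-0.82) and PDE2 (-1.15) added, and so did 35.0% of all genes tested.

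Differences in footprints between the strains also went with gene length. The median was 0.68 over the 37 genes with a listed length of at least 6000 bases, of which 14 passed as higher in EY0690, 0 as lower and the others did not pass, against -0.34 over 1798 genes under 1000 bases. IRA2, CYR1 and IRA1, which differed by 1.20 ± 0.27 (adjusted p = 0.0094, edgeR), belong to the long class. The part of length in their differences was not tested. In polyA RNA the median difference of the same 37 genes was 0.25. Between conditions their median change in polyA RNA was 0.225, against -0.07 over 1942 genes under 1000 bases. Length also went with the kind of RNA library: in glucose-grown BY4741 the log2 ratio of total to polyA CPM was 2.37 in the median long gene, -1.10 in the median of genes under 1000 bases, 2.58 for IRA2 and 1.72 for CYR1.

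Footprints relative to polyA RNA, compared between strains in a test added after the data were seen, gave 0 members past the threshold, against 0.0199% of 5018 genes (1 gene). Unadjusted, 3 of 9 members had a p under 0.05, against 13.6% of all genes tested. IRA2 was at 1.95 ± 0.42 on the log2 scale (adjusted p = 0.0844, edgeR), TPK3 at -1.02 ± 0.37 (0.267) and CYR1 at 0.86 ± 0.33 (0.291). For IRA2 DESeq2 gave 1.95 (adjusted p = 0.0045), and the value without both BY4741 footprint libraries numbered 2 was 1.67 (adjusted p = 0.0446).

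**Figure D4:**
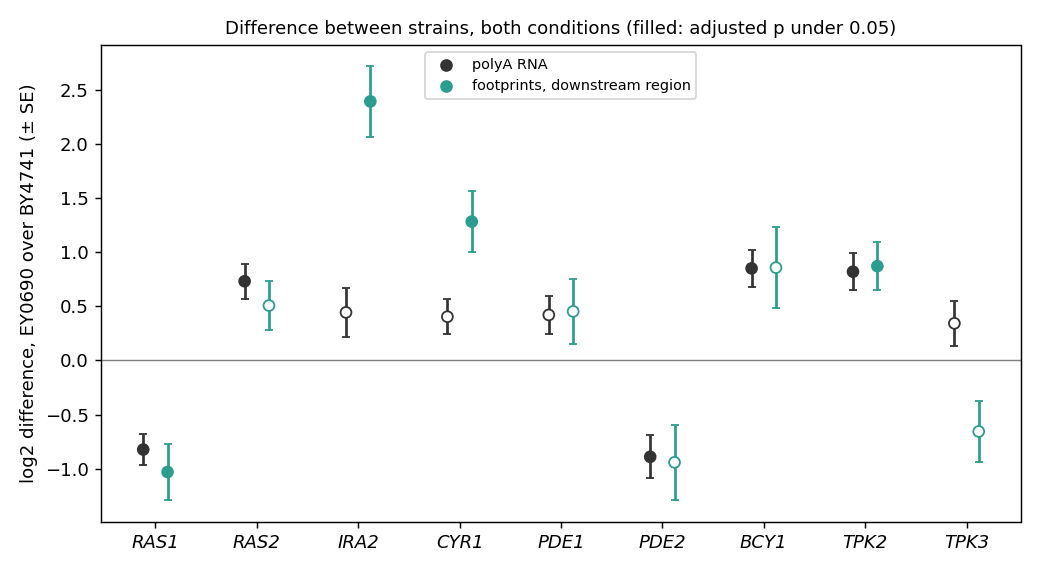
Log2 difference, EY0690 over BY4741 with condition in the model, with its SE, of polyA RNA and of downstream footprints for the 9 genes. Filled points passed at an adjusted p under 0.05 (edgeR); IRA2 footprints stand highest at 2.40, and RAS1 is at -0.82 in polyA RNA and -1.03 in footprints.

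Whether the strains responded differently to glucose removal was tested as an interaction. In polyA RNA 0 of 9 members passed, against 0.17% of 5304 genes (0.0566% higher and 0.113% lower), and in footprints 0 of 9, against 0% of 5018 genes. At an unadjusted p under 0.05 there were 0 members in either test, against 5.66% and 3.03% of all genes. DESeq2 called 0 members in either, while it called 37 genes in polyA RNA and 3 in footprints. The largest values were 0.72 ± 0.41 for IRA2 in polyA RNA and -0.95 ± 0.50 for CYR1 in footprints. Within 2 SE a difference of 2-fold was reached by every member except TPK2 in footprints, and by IRA2, TPK3 and PDE2 in polyA RNA. For these a like response in the strains was not shown.

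Among the lists the same strain comparison gave, in polyA RNA, 4 upstream regulators higher and 2 lower in EY0690 of 16, with STE14 lowest at -1.49 ± 0.21 and TFS1 highest at 1.34 ± 0.24. Of the 19 targets 9 were higher and 0 lower, among them the repressor SFL1 at 1.49 ± 0.24, the mRNA decay factor PAT1 at 1.11 ± 0.14 and the kinase RIM15 at 1.09 ± 0.22. Over all 5304 genes tested 37.2% passed, 20.2% higher and 17% lower, and the upstream count lay near that share. In footprints 5 upstream regulators were higher and 1 lower of 15, and 6 targets were higher and 0 lower of 19, with RIM15 at 1.55 ± 0.35 and YAK1 at 1.55 ± 0.25. Over all 5018 genes tested 21.9% passed in footprints, 11.2% higher and 10.7% lower. In either list 0 genes passed the strain by condition tests.

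Levels of the members relative to each other were compared per kilobase of listed length. In glucose-grown polyA RNA RAS2 was highest at 348 ± 94.8 CPM per kb (SD, n = 4), and its libraries did not overlap those of the next gene, RAS1, at 126 ± 40.5. PDE2, TPK3, BCY1, PDE1 and TPK2 had means from 122 to 43.8 CPM per kb and overlapped their neighbours, and their order with RAS1 was not that of each strain: PDE2 and RAS1 were at 162 and 159 CPM per kb in BY4741 and at 82.4 and 91.9 in EY0690, and TPK3 at 99.5 and 110.2. IRA2 at 15.3 ± 4.18 and CYR1 at 15.1 ± 3.62 were lowest and apart from TPK2. They were not lowest in unselected RNA from glucose. There the means of 2 values were 65.6 CPM per kb for IRA2, 41.7 for TPK2, 41.0 for CYR1 and 38.3 for PDE1, the lowest. The part of gene length in the polyA order was not tested.

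In glucose footprints RAS2 was highest in both strains, at 171 ± 13.3 CPM per kb (SD, n = 2) in BY4741 and 257 ± 39.1 in EY0690. The places below it differed between strains. BCY1 and RAS1 were at 94.5 ± 46.5 and 115 ± 0.088 CPM per kb in BY4741, where they overlapped, and at 151 ± 8.05 and 54.5 ± 15.8 in EY0690. IRA2 was at 8.85 ± 1.83 in BY4741 and 41.0 ± 14.3 in EY0690. In unselected RNA, with a single value per strain, IRA2 was at 92.4 CPM per kb in BY4741, beside RAS1 at 93.1, and at 38.93 in the authors' pooled EY0690 column, beside CYR1 at 38.92.

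The footprints per polyA RNA of the regulatory subunit BCY1 lay between the 88.3 and 93.0 percentiles of all genes in glucose, and those of PDE1, PDE2 and TPK3 between the 6.74 and 29.7 percentiles. IRA2 ran from the 5.88 to the 98.2 percentile over the 4 glucose pairs.

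The stress response element CCCCT, which Msn2 and Msn4 bind, was searched on both strands in the window from 250 bases before to 50 bases after each coding start. It was found in 2 of 9 members, against 21.8% of 5379 windows. The match in CYR1, on the opposite strand, and that in PDE1 are shown on the coding strand in RefSeq R64 sequence, with the match in capitals.
CYR1 (chrX:424934-424963, plus strand): tggaaggaaagcAGGGGggacttaccataa
PDE1 (chrVII:35615-35644, plus strand): cttcttcttcatCCCCTtttttaccaatat
The polyA RNA of CYR1 and PDE1 rose, and so did that of TPK2, BCY1, IRA2 and RAS2, whose windows held no match. The windows of RAS1 and TPK3, whose polyA RNA fell, and of PDE2 held none either. Bases more than 250 before a coding start were not searched.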

How the data were processed

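PolyA RNA, unselected RNA and footprint libraries were sequenced; per the submitters' processing notes Bowtie 0.12.8 and genome build R64 were used, and the counting program, the treatment of reads with several matches and the region bounds were not stated. The deposited table holds whole-number counts per gene in an initiation and a downstream region, and the gene length listed by the authors. Empty downstream cells, 60 in starved BY4741 footprint replicate 1 and 20 in starved BY4741 total RNA, were read as 0. A further 34 per-sample columns were not used.

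Genes that reached 10 counts in 4 or more libraries, for every kind of library fitted, were tested with edgeR 4.0.16 in R 4.3.3 (TMM scaling, quasi-likelihood F test, Benjamini-Hochberg over all genes, threshold 0.05). SE is the absolute log2 change over the square root of F. Models held strain and condition, and for occupancy also kind of library. Alternatives included DESeq2 1.42.0. All 9 members passed the filters. Fits were also run on simulated data. The outcome is not given here, so that a test not passed does not show an absence of change. The depth of 698310 to 8110916 downstream counts limits low genes most.

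Deviations of same-numbered glucose and starved libraries from their group means correlated at 0.149 and 0.297 in polyA RNA (BY4741, EY0690) and 0.687 and 0.204 in footprints. With 2 numbers a strain the pairs mirror each other. The main models did not pair libraries by number, and such pairing was fitted only as an alternative, the replicate block. Between strains the correlations were 0.0468 to 0.124, and the main models did not pair by number there either.

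Members and gene lists were chosen with earlier results of these data known; up to 5 genes that passed were named per list and comparison, and those named in the start-region and strain comparisons, and IRA1, were chosen after their values were seen. The start-region and strain-occupancy tests were added after the data were seen. A planned comparison of protein sequences was not run, and the values of 1 listed gene are not reported here. Coordinates are from RefSeq R64; 5379 table IDs matched.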

Additional observations from a re-analysis of the deposited data

Results flagged for a closer look

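In 3 of 36 sets of 4 libraries (a member in a kind of library and a condition, both strains together), a single library lay far from the other 3; chance gives about 1 in 20 such sets. PDE1 polyA RNA in glucose was 88.8 CPM in EY0690 replicate 1, and 57.7 to 62.3 CPM in the other 3 libraries. TPK3 footprints in starved cells were 57.7 CPM in BY4741 replicate 2, and 22.6 to 27.5 CPM in the others. PDE2 footprints in starved cells were 121 CPM in the same BY4741 library, and 31.3 to 39.9 CPM in the others. That library is 1 of the pair whose footprint levels correlated most with polyA RNA, at 0.942; its part in the latter 2 values was not tested.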

How the results depend on the processing

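Of 1350 member values under an alternative, 1296 kept their direction or stayed uncalled and kept their side of the threshold, 29 lost a call, 25 gained one and 0 reversed. Counts of genes called changed by over 1.5 times as follows; the cause was not tested. PolyA response, from 2103 genes and 8 members: BY4741 alone 418 and 2. Footprint response, from 160 and 0: DESeq2 299, both regions summed 273 and 1, replicate block 429 and 1, both BY4741 libraries numbered 2 left out 609 and 1, BY4741 alone 0, EY0690 alone 558 and 1. Occupancy, from 67 and 1: DESeq2 200, both regions summed 20 and 0, replicate block 246, both numbered 2 left out 179, BY4741 alone 0 and 0, EY0690 alone 146. Strain difference in footprints, from 4 members: 2 with both numbered 2 left out. Strain by condition, from 9 genes in polyA RNA and 0 in footprints: DESeq2 37 and 3, and 59 in footprints with both numbered 2 left out. Start-region share, from 157 and 2: BY4741 alone 0 and 0, EY0690 alone 9 and 0. Strain difference in occupancy, from 1 and 0: DESeq2 62 and 1, replicate block 7 and 1, both numbered 2 left out 179 and 1.

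Leaving out each library in turn, where a group left with 1 library is assumed to vary like the others, gave 1568 to 2357 genes and 7 to 9 members in the polyA response, 86 to 493 and 0 to 1 in the footprint response, 20 to 227 and 1 to 1 in occupancy, 1570 to 2300 and 5 to 7 in the strain difference in polyA RNA, 534 to 1756 and 2 to 8 in that in footprints, 0 to 74 and 0 to 0 in the strain by condition test in polyA RNA, 0 to 27 and 0 to 0 in that in footprints, 43 to 240 and 0 to 3 in the start-region share, and 0 to 61 and 0 to 2 in the strain difference in occupancy.

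The replicate block changed the calls of PDE2 in polyA RNA and BCY1 in footprints, given above, and no other member call between conditions; for the start-region share no blocked fit was run. Between strains, where libraries share only a number, the block gave adjusted p of 0.0404 for PDE1 in polyA RNA, 0.0200 for BCY1 and 0.0296 for PDE2 in footprints, and 0.0411 for IRA2 in occupancy. Library size in place of TMM scaling moved the median log2 change of all genes from -0.03 to -0.13 in the polyA response, from -0.03 to -0.17 in footprints and from -0.07 to -0.50 in the strain by condition test in footprints; the split of higher and lower polyA calls went from 1083 and 1020 to 879 and 1189. Counting error limits the initiation shares in glucose-grown EY0690, where both regions held 41 to 47 footprints of TPK2, 30 to 35 of TPK3 and 17 to 40 of PDE1.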
